A study of Homo sapiens with 60 samples.

Results

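The genes described here are the 10 listed by name that make, move, break down and sense acetylcholine: CHAT, SLC18A3, SLC5A7, ACHE, CHRNA3, CHRNA5, CHRNA7, CHRNB2, CHRNB4 and CHRM3. All 10 were found among the 37334 genes of the deposited table, and all 10 passed the filter of at least 1 CPM (count per 1000000 assigned reads) in at least 3 libraries that 15263 genes passed. They were followed in SH-SY5Y, a human neuroblastoma line of sympathetic, noradrenergic character that can be differentiated towards neuron-like cells. Cells of passage 39 received lead (Pb) at 0.16, 1.26 or 10 µM, or 0 µM, from day 5 of differentiation onward, with Pb renewed at each change of medium. Collection was on day 6 and every 3 days up to day 18, with 3 dishes of 15 cm and so 3 libraries in each of the 20 groups of day and dose. All groups, those without Pb included, share 1 line with a wild-type genotype label, 1 passage and 1 differentiation protocol, and only the dishes are replicated.

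Acetylcholine is made from choline and acetyl-CoA by choline acetyltransferase (CHAT), loaded into synaptic vesicles by the vesicular acetylcholine transporter (SLC18A3), and broken down in the cleft by acetylcholinesterase (ACHE). The choline set free is taken back up by the high-affinity choline transporter (SLC5A7). Acetylcholine acts on nicotinic receptors, which are ion channels of several subunits, and on muscarinic receptors, which couple to G proteins. Autonomic ganglion neurons carry mainly nicotinic receptors built from CHRNA3 and CHRNB4, and SH-SY5Y cells are widely used to study these receptors and the muscarinic receptor CHRM3.

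Library depth ran from 16594259 to 50539599 assigned reads, so that 3 reads in 1 library corresponded to between 0.0594 and 0.181 CPM. The library names of all 12 libraries of day 18 carry one prefix and those of the other 48 another; the labels do not say what the prefix stands for, and a change on day 18 and whatever the prefix marks cannot be told apart. The 4 keratin genes KRT5, KRT14, KRT6A and KRT17 of epithelial cells also stood apart on day 18. KRT5 was at 28.1 to 44 CPM in the 12 libraries of day 18, against at most 1.08 CPM in the libraries of the other days. The summed level of the 8 epithelial markers was 91.1 to 147 CPM on day 18 and at most 5.57 CPM before, while the epithelial markers CDH1 and TP63 stayed under 1 CPM throughout. The part of this in the day 18 values was not tested. Of the noradrenergic list, DBH, the enzyme that makes noradrenaline, and HAND2, a sympathetic transcription factor, were present in all groups, and the 7 markers summed to 1210 to 1480 CPM on day 6, 983 to 1170 on day 9, 7160 to 9070 on day 12, 9930 to 12700 on day 15 and 7480 to 8870 on day 18. Without Pb, DBH had 7453 ± 428 CPM on day 12, against 702 ± 22.1 CPM on day 6 (SD, n = 3 each), and 2 of the 7 markers were higher and 4 lower on day 12 than on day 6 (21.6% and 34.6% of all genes). Markers of blood and skeletal muscle summed to at most 1.57 and 0.763 CPM, and those of Schwann cells and glia to at most 12.2 CPM. In these bulk libraries, fewer cells that express a gene and less of its RNA per cell cannot be told apart.

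The promoter windows of 5 members are shown because their genes lie beside each other (CHAT with SLC18A3, CHRNA3 with CHRNB4) or changed most between days 6 and 18 without Pb (ACHE). Each runs from 250 bases before to 50 after the start of transcription as given by RefSeq (GRCh38.p14), 5′ to 3′ on the strand of the gene, and capitals mark matches to the GC box GGGCGG or its complement CCGCCC, the sequence bound by SP1-type factors.
SLC18A3: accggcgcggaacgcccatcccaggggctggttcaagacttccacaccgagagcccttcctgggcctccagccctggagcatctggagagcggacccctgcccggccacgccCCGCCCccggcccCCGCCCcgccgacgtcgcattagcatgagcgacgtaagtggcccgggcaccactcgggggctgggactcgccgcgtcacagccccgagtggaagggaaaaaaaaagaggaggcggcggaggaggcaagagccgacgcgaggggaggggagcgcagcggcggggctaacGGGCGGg
CHAT: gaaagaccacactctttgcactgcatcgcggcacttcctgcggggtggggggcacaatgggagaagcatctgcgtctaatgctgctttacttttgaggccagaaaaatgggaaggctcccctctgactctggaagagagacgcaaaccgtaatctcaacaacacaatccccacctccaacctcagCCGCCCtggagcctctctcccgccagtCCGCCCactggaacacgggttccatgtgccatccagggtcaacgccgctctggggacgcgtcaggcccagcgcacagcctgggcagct
CHRNA3: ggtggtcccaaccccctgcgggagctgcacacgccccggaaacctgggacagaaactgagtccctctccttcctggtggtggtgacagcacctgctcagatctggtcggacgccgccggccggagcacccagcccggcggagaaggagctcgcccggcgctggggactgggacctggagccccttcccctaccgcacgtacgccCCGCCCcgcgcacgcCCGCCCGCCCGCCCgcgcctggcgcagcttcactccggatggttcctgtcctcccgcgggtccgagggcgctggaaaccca
CHRNB4: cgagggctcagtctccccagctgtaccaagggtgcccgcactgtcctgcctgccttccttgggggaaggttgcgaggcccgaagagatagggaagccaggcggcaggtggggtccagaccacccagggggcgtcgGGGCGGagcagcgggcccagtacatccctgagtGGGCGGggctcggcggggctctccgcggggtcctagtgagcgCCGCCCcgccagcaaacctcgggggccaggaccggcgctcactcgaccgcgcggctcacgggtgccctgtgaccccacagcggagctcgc
ACHE: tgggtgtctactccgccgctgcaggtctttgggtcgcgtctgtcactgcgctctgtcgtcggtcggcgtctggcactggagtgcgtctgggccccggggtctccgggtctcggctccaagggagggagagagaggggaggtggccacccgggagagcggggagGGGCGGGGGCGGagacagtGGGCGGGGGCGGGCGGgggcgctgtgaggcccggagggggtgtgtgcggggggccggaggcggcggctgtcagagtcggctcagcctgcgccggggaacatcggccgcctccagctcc
These windows are chr10:49610060-49610359 (+) for SLC18A3, chr10:49608845-49609144 (+) for the first of 3 starts of CHAT, chr15:78620947-78621246 (-) for CHRNA3, chr15:78641161-78641460 (-) for CHRNB4 and chr7:100895839-100896138 (-) for the first of 3 starts of ACHE. They hold 3, 2, 4, 3 and 5 matches in the order shown, where overlapping matches were counted each. The other starts, not shown, hold 3 and 1 matches for CHAT and 0 and 1 for ACHE. Of the others, CHRNA7 has 6 at each of its 2 starts and SLC5A7 has 1, whereas CHRNB2 and CHRM3 have 0, and no window is shown for CHRNA5. Of 34796 windows of all genes, 44.9% hold at least 1 match on either strand. The 8-base cAMP response element TGACGTCA was found in no window of the 9 members searched and in 1.84% of all windows. A match describes the letters only.

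CHAT and SLC18A3 share a locus. SLC18A3 lies wholly within CHAT on the same strand of chromosome 10, at positions 49610310 to 49612720 inside 49609095 to 49667942 (RefSeq, GRCh38), and no exon bases of the pair coincide in GENCODE release 29. CHRNA3 and CHRNA5 run on opposite strands of chromosome 15 and share 198 exon bases, which is 4.16% of the exon length of CHRNA3 and 5.47% of that of CHRNA5. The strand setting of the authors' counting is not given in the sources used here, so reads in that stretch cannot be assigned to one of them.

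Without Pb, the members for nicotinic subunits, vesicular transport and breakdown had far more RNA than CHAT, for synthesis, and SLC5A7, for high-affinity choline uptake. This does not extend to all choline transport, since SLC44A2, a lower-affinity choline transporter and not a member, had 161 ± 7.82 CPM on day 6. Levels of different genes were set side by side as CPM per kilobase of the principal transcript. The counts are of whole genes, whose exon length can be greater, 21 against 6.18 kilobases for CHRNA7 and 4.98 against 2.62 for CHRNB4. The order given here therefore depends in part on the length taken. With these lengths CHRNA3 was highest on day 6 at 197 ± 0.299 (SD, n = 3), followed by SLC18A3 at 48.7 ± 2.99 and ACHE at 45.1 ± 4.7, which overlapped each other. CHRNB4 at 34.1 ± 2.14, CHRNB2 at 18.3 ± 0.416, CHRNA5 at 8.91 ± 0.574, CHRM3 at 6.84 ± 0.85 and CHRNA7 at 5.28 ± 0.0339 followed without overlap between neighbours. CHAT at 0.267 ± 0.195 and SLC5A7 at 0.203 ± 0.0345 were lowest and overlapped each other. Replicate 2 held 4 reads of CHAT, whereas SLC5A7 had 24 to 34 reads in each library. SLC18A3, although nested in CHAT, was thus read at a far higher level than its host.
By day 18 the order had changed at the top. ACHE was highest at 292 ± 15.4 CPM per kilobase and CHRNA3 second at 164 ± 5.93, without overlap, and on the same scale SLC18A3 at 69.2 ± 5.23 and CHRNB4 at 68.6 ± 2.69 overlapped. CHRNB2 at 16.5 ± 6.22 and CHRM3 at 13.9 ± 0.836 overlapped as well, and CHRNA7 at 12.1 ± 0.924 now lay above CHRNA5 at 6.13 ± 1.08. The order of CHRNA7 and CHRNA5 depends on the length taken for CHRNA7. CHAT at 1.4 ± 0.388 and SLC5A7 at 0.654 ± 0.0322 were again the lowest.

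**Figure D1:**
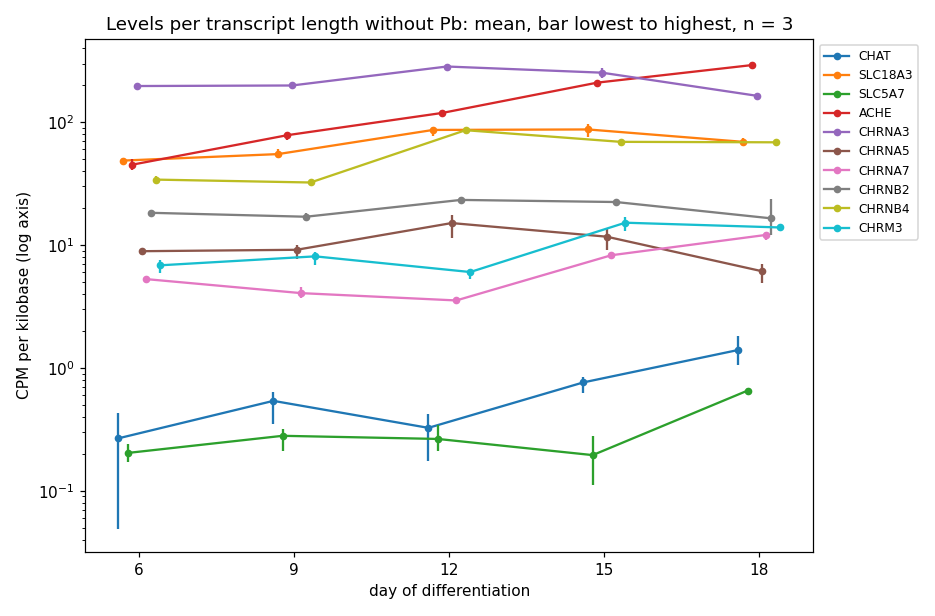
Level of each gene without Pb in CPM per kilobase of its principal transcript (log axis) against the day of differentiation; points are means of 3 libraries and bars run from the lowest to the highest library. ACHE climbs to 292 on day 18 and passes CHRNA3, while CHAT and SLC5A7 stay lowest on every day.

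The time course without Pb asks which of these genes change as the cells differentiate. Differences are given as log2(CPM + 1), later day minus earlier, ± the standard error of the limma fit, and a gene passed at a Benjamini-Hochberg adjusted p under 0.05 over the 15263 genes. Against day 6, 2 of 10 members passed on day 9 (5.14% of all genes tested did), ACHE higher and CHRNA7 lower, 7 on day 12 (56.2% of all genes), 7 on day 15 (58.3%) and 8 on day 18 (66.8%). These shares are near the background from day 12 on in number, and the directions were 6 higher and 1 lower on day 12 (21.6% of all genes higher, 34.6% lower), 7 and 0 on day 15 (26.2% higher, 32.2% lower) and 7 and 1 on day 18 (32.1% higher, 34.7% lower). Set against the collection before, 8 members passed on day 12 (54.4% of all genes), 5 on day 15 (37.0%) and 7 on day 18 (33.3%). The median difference of the members from day 6 was 1.01 on day 18, against -0.03 over all genes.

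**Figure D2:**
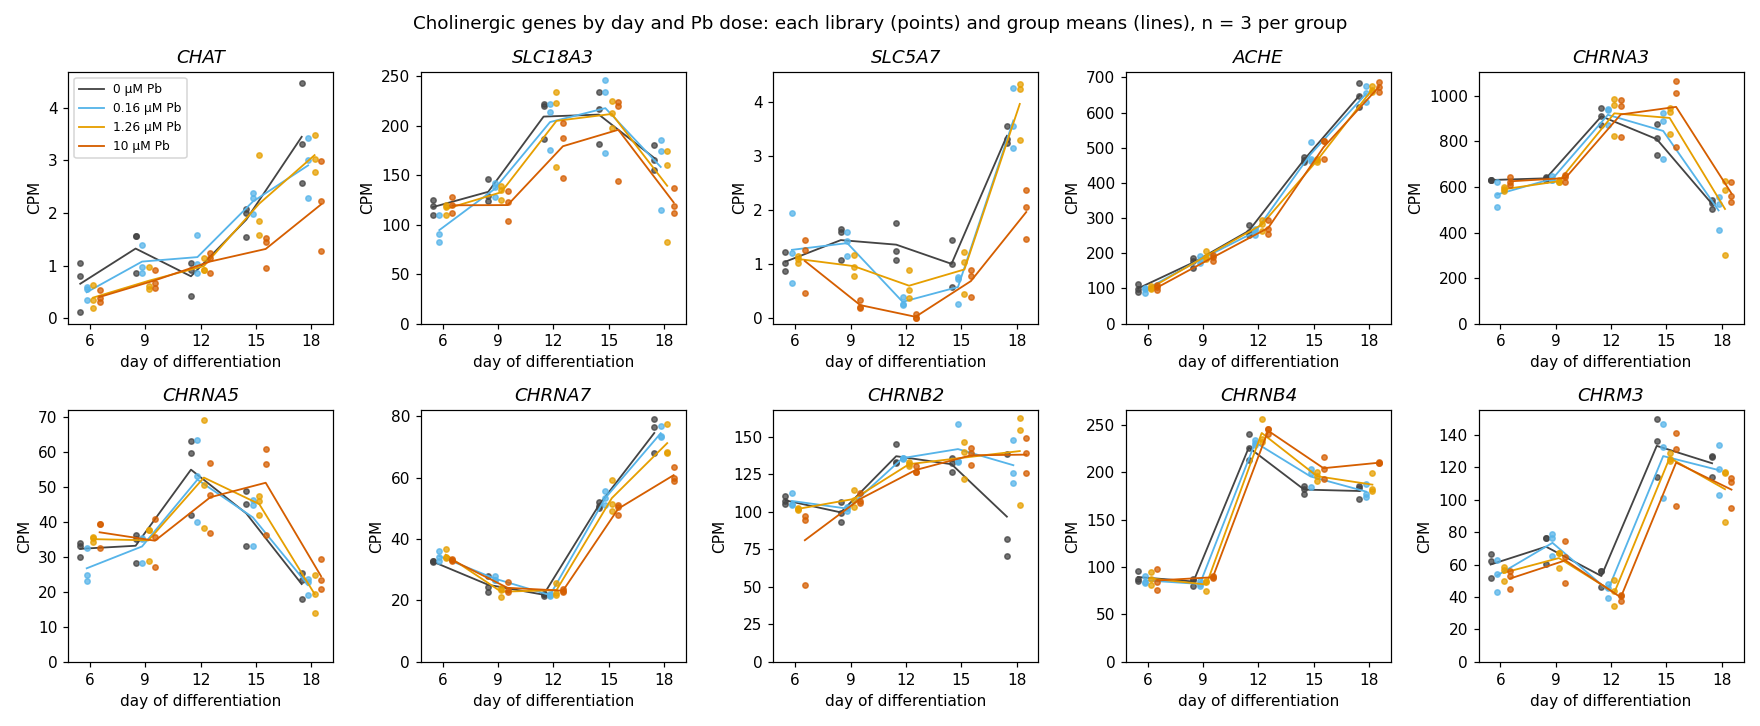
CPM of the 10 genes on days 6 to 18 (linear axes) at 4 Pb doses, drawn low to high; points are libraries and lines join the means of 3. The mean of ACHE is higher at each later day at all doses, SLC5A7 at 10 µM Pb reaches 0 in 2 of 3 libraries on day 12, and CHRNB4 steps up between days 9 and 12.

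ACHE, the enzyme that ends the signal, was the member that changed most. Its levels without Pb were 112, 97.6 and 91.2 CPM on day 6, 185, 158 and 178 on day 9, 280, 260 and 252 on day 12, 473, 461 and 465 on day 15, and 646, 684 and 616 on day 18. No library of one day overlapped with those of another. The mean on day 18 was 6.48-fold that of day 6, a difference of 2.69 ± 0.07 (adjusted p = 9.11e-35), and each later day was higher than the day before it, by 0.79 ± 0.07 on day 9 (adjusted p = 1.98e-12), 0.60 ± 0.07 on day 12 (1.04e-10), 0.82 ± 0.07 on day 15 (2.95e-14) and 0.47 ± 0.07 on day 18 (2.46e-07). The genes whose 20 group means followed ACHE most closely were DLG2, a postsynaptic scaffold protein, with Pearson r = 0.992, and RAB6B, a neuronal Golgi GTPase, with r = 0.988. PRIMA1, which anchors ACHE in the membrane of neurons, went the other way: it fell to 7.93 ± 1.19 CPM on day 18, against 42.8 ± 1.46 CPM on day 6 (-2.30 ± 0.12, adjusted p = 5.63e-22). COLQ, the collagen tail of ACHE at the neuromuscular junction, did not pass (0.02 ± 0.19, adjusted p = 0.932), and BCHE, the related butyrylcholinesterase, was under the filter at no more than 0.289 CPM.

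Of the genes for synthesis and transport, CHAT had 2.57, 3.3 and 4.46 CPM on day 18, against 1.05, 0.121 and 0.802 CPM on day 6. All day 18 libraries lay above all day 6 libraries, with a difference of 1.45 ± 0.19 (adjusted p = 7.25e-09), and CHAT was already higher on day 15, at 1.55, 2.07 and 2.01 CPM (0.84 ± 0.19, adjusted p = 0.000226). The step to day 18 (0.61 ± 0.19, adjusted p = 0.0118) was lost with edgeR and without replicate 1 of day 15 or replicate 3 of day 18.
SLC18A3 rose earlier, by day 12. It had 124, 119 and 110 CPM on day 6, 124, 129 and 146 on day 9, 187, 221 and 220 on day 12, 182, 234 and 217 on day 15, and 181, 156 and 166 on day 18. The days from 12 on lay above day 6 without overlap, by 0.82 ± 0.18 on day 12 (adjusted p = 0.000125), 0.83 ± 0.18 on day 15 (0.000102) and 0.50 ± 0.18 on day 18 (0.0124), and the last was lost without replicate 1 of day 18, a library low in long transcripts (adjusted p = 0.0508 without both such libraries). Day 18 lay below day 15 without overlap, and that difference did not pass (-0.33 ± 0.18, adjusted p = 0.155). The 20 group means of the nested gene and its host had r = 0.415. The genes most like CHAT were ANPEP, an aminopeptidase (r = 0.96), and CCT3, a chaperonin subunit (r = 0.958), whereas those most like SLC18A3 were SLC25A1, the mitochondrial citrate carrier (r = 0.943), and STUB1, a ubiquitin ligase (r = 0.942).
SLC5A7 was near 1 CPM on days 6 to 15 and higher only on day 18, with 3.55, 3.23 and 3.31 CPM, against 1.23, 1.03 and 0.875 CPM on day 6 (1.10 ± 0.18, adjusted p = 8.04e-07). Between days 15 and 18 it rose by 1.15 ± 0.18 (adjusted p = 2.99e-06), a step between libraries of different name prefixes. BCL11A, a transcriptional repressor (r = 0.91), and IFITM2, an interferon-induced membrane protein (r = 0.898), followed it most closely.

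The lower-affinity choline transporters of the SLC44 family and the choline kinases, a list of 7 genes of which 6 passed the filter, gave 2 higher and 4 lower genes on day 18 against day 6 (32.1% of all genes were higher and 34.7% lower), with a median of -0.82 (-0.03 over all genes). SLC44A3 rose to 12.9 ± 1.63 CPM on day 18, against 2.77 ± 0.462 CPM on day 6 (1.88 ± 0.14, adjusted p = 4.68e-16), and SLC44A2 by 0.64 ± 0.06 (3.18e-14). SLC44A5 fell by 1.42 ± 0.19 (5.95e-09) and SLC44A1 fell by 1.03 ± 0.20 (1.42e-05).

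Among the nicotinic subunits, CHRNB4, the partner of CHRNA3 in the ganglionic receptor, made a single upward step, between days 9 and 12, and was lower again from day 15. It had 240, 225 and 212 CPM on day 12, against 86.7, 80.2 and 87.2 CPM on day 9, which is far outside the spread of either group (1.40 ± 0.06, adjusted p = 5.07e-24). On day 15 it was at 185, 177 and 183 CPM and on day 18 at 183, 185 and 172 CPM. Both lay below day 12 and above day 6 without overlap (on day 18 above day 6 by 1.00 ± 0.06, adjusted p = 1.63e-18). Its closest genes over the 20 group means were MVD, an enzyme of cholesterol synthesis (r = 0.997), and SLC2A6, a sugar transporter (r = 0.996).
CHRNA3, the subunit that pairs with it and lies beside it on chromosome 15, moved less and did not stay high. It was at 630, 632 and 630 CPM on day 6, 873, 912 and 947 on day 12, 739, 877 and 814 on day 15, and 530, 504 and 542 on day 18. Day 12 was higher than day 6 by 0.53 ± 0.13 (adjusted p = 0.000816) and day 15 by 0.36 ± 0.13 (0.0205, lost without replicate 2 of day 15), while day 18 lay below day 15 by a difference of -0.62 ± 0.13 (0.000386). Day 18 was below every day 6 library but did not pass (-0.26 ± 0.13, adjusted p = 0.0792), so that CHRNB4 and CHRNA3 were, in CPM, at 180 ± 7.05 and 525 ± 19 on day 18, against 89.4 ± 5.62 and 631 ± 0.957 on day 6.
CHRNA5, an accessory subunit of the same receptors, was also highest on day 12, with 41.8, 59.7 and 63.1 CPM on day 12, against 33.9, 33 and 29.9 CPM on day 6 (0.73 ± 0.20, adjusted p = 0.00219). On day 18 it fell to 23.5, 17.8 and 25.3 CPM, which is below day 6 without overlap (-0.53 ± 0.20, adjusted p = 0.0196), a call that was lost without replicate 1 of day 6 or replicate 2 of day 18. The genes most like CHRNA3 were FGFBP3, a growth factor binding protein (r = 0.97), and SYN1, a synaptic vesicle protein (r = 0.965); those most like CHRNA5 were SDF4 (r = 0.98) and LONRF1 (r = 0.966).

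CHRNA7, which forms receptors of 1 subunit type, first dropped and then rose. It had 32.7, 32.8 and 32.4 CPM on day 6, 28, 22.9 and 24.4 on day 9, 22.3, 22 and 21.4 on day 12, 52.2, 50.8 and 50.1 on day 15, and 68.1, 76.4 and 79.1 on day 18. The groups of days 9 and 12 lay wholly below day 6 and those of days 15 and 18 wholly above it. The differences from day 6 were -0.37 ± 0.07 on day 9 (adjusted p = 0.000229), -0.56 ± 0.07 on day 12 (1.78e-09), 0.63 ± 0.07 on day 15 (6.67e-11) and 1.16 ± 0.07 on day 18 (7.89e-20). ENO3, a muscle-type enolase (r = 0.988), and SRRM4, a neuronal splicing factor (r = 0.984), had the closest courses. The count of CHRNA7 is uncertain by its near-copy CHRFAM7A: of the 6107 windows of 75 bases in the CHRNA7 transcript, 81.4% occur letter for letter in the CHRFAM7A transcript. CHRFAM7A was counted at 9.95, 8.92 and 10.5 CPM on day 18, against 4.51, 4.6 and 3.98 CPM on day 6, and how the authors' counting split reads between the pair is not given in the sources used here.
CHRNB2, the beta subunit of the main brain-type receptor, changed in a way that rested on single libraries. It was at 145, 133 and 133 CPM on day 12, against 105, 110 and 107 CPM on day 6, above it without overlap (0.34 ± 0.15, adjusted p = 0.0467), a call lost without any 1 of the 6 libraries. On day 18 the 3 libraries without Pb had 70.2, 81.5 and 138 CPM and so did not resemble each other. TNKS1BP1 (r = 0.963) and DNAJC6, a neuronal auxilin (r = 0.955), were closest to it.

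The other nicotinic subunits were a list of 11 genes of which 5 passed the filter, and 4 of these were higher and 0 lower on day 18 than on day 6 (32.1% and 34.7% of all genes), with a median of 0.91. CHRND, the delta subunit known from the muscle receptor, rose most, to 32.2 ± 0.63 CPM on day 18, against 0.149 ± 0.0649 CPM on day 6 (4.85 ± 0.10, adjusted p = 4.58e-38). CHRNB1, the beta subunit of the muscle receptor, had 63.4 ± 5.55 CPM on day 18, against 34.3 ± 2.11 CPM on day 6 (0.87 ± 0.08, adjusted p = 4.34e-13). Their muscle partners CHRNA1, CHRNE and CHRNG stayed under the filter at no more than 0.328, 0.442 and 0.294 CPM. CHRNA9 (0.98 ± 0.15, adjusted p = 3.71e-07) and CHRNA4 (0.91 ± 0.15, 6.83e-07) rose to 1.32 and 1.12 CPM on day 18, against 0.174 and 0.136 CPM on day 6.
Of the 8 chaperones and modulators of nicotinic receptors, 6 passed the filter, with 5 higher and 1 lower on day 18 (32.1% and 34.7% of all genes, 66.8% in either direction) and a median of 0.84. LYPD1, a membrane-anchored modulator of the toxin-like Ly6 family, was at 59.8 ± 3.51 CPM on day 18, against 0.531 ± 0.182 CPM on day 6 (5.32 ± 0.13, adjusted p = 1.77e-34). LYNX1, its relative, rose by 1.23 ± 0.11 (4.14e-14), the assembly factor TMEM35A (also called NACHO) by 1.06 ± 0.08 (2.81e-16) and the chaperone RIC3 by 0.63 ± 0.08 (4.77e-09).

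CHRM3, which couples to Gq and is the member on the muscarinic side, stepped up between days 12 and 15. It had 114, 149 and 136 CPM on day 15, against 46.4, 56.3 and 56.2 CPM on day 12, without overlap (1.31 ± 0.15, adjusted p = 1.09e-09). On day 18 it was at 127, 114 and 127 CPM, against 51.8, 62.1 and 66.3 CPM on day 6 (1.02 ± 0.15, adjusted p = 9.26e-08). AFF3, a nuclear factor (r = 0.977), and VCAN, the proteoglycan versican (r = 0.956), were most like it. All 4 other muscarinic receptors passed the filter, and on day 18 against day 6, 2 were higher and 0 lower (32.1% and 34.7% of all genes), with a median of 0.22. CHRM4 rose to 13.7 ± 0.979 CPM on day 18, against 5.04 ± 1.54 CPM on day 6 (1.31 ± 0.22, adjusted p = 1.18e-06), and CHRM5 rose by 0.46 ± 0.18 (0.02), while CHRM1 (-0.03 ± 0.11, adjusted p = 0.809) and CHRM2 (-0.48 ± 0.24, 0.0679) did not pass. All 9 genes of Gq signalling passed the filter, with 4 higher and 5 lower (again 32.1% and 34.7% of all genes) and a median of -0.29. Of these, the brakes on G protein signalling RGS4 (-0.79 ± 0.06, adjusted p = 6.44e-15) and RGS2 (-0.29 ± 0.06, 2.28e-05) fell, and the phospholipases PLCB2 (1.34 ± 0.21, 2.26e-07) and PLCB1 (0.75 ± 0.14, 1.02e-05) rose.

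The transcription factors that guide cholinergic and sympathetic neurons were a list of 14, of which 10 passed the filter. On day 18, 2 were higher and 3 lower than on day 6 (32.1% and 34.7% of all genes), with a median of -0.10. GATA2 fell to 435 ± 15.5 CPM on day 18, against 1435 ± 51.7 CPM on day 6 (-1.72 ± 0.06, adjusted p = 3.1e-28), and PHOX2A fell by 2.05 ± 0.37 (5.08e-06). ISL1, a LIM homeodomain factor, rose by 0.22 ± 0.05 (0.000286), and TLX3 fell by 0.56 ± 0.22 (0.0206). The motor neuron and forebrain cholinergic factors MNX1, LHX3 and LHX8 stayed under the filter at no more than 0.127, 0.405 and 0.193 CPM. All 8 listed receptors of cytokines or of bone morphogenetic proteins passed the filter, with 1 higher and 3 lower (32.1% and 34.7% of all genes) and a median of -0.21. BMPR1B (-1.06 ± 0.08, adjusted p = 1.33e-15), BMPR1A (-1.01 ± 0.13, 2.5e-09) and IL6ST, a receptor chain shared by several cytokines (-0.71 ± 0.12, 1.15e-06), fell, and ACVRL1 rose (0.44 ± 0.17, 0.0189).

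The Pb comparisons ask whether exposure shifts these genes on each day. Each dose was set against 0 µM of the same day, whose libraries carry the same name prefix, and the doses of a day share their 3 libraries without Pb. Over the 15 comparisons, members passed 9 times, 7 of them on day 18. At 10 µM 0 members passed on day 6 (0.655% of all genes), 1 on day 9 (1.41%), 1 on day 12 (5.37%), 0 on day 15 (5.68%) and 5 on day 18 (28.9%). At 0.16 and 1.26 µM 1 member passed on day 18 (6.34% and 12.4% of all genes). On days 6, 9, 12 and 15, 0 members passed at 0.16 µM, where 0.00%, 0.0131%, 0.0197% and 0.0131% of all genes did, and 0 at 1.26 µM, where 0.00%, 0.400%, 0.0459% and 1.26% did. At an unadjusted limma p under 0.05, 1 member was found in these 4 comparisons at 0.16 µM, on day 12, and 4 at 1.26 µM, 2 each on days 9 and 12. At 10 µM 1 member was on day 6 and 1 on day 15. In these 10 comparisons edgeR on the recovered reads called 1 member, at 0.16 µM on day 12. The shares of all genes at the unadjusted cutoff and with edgeR are not given here, so these member counts cannot be set against a background.

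**Figure D3:**
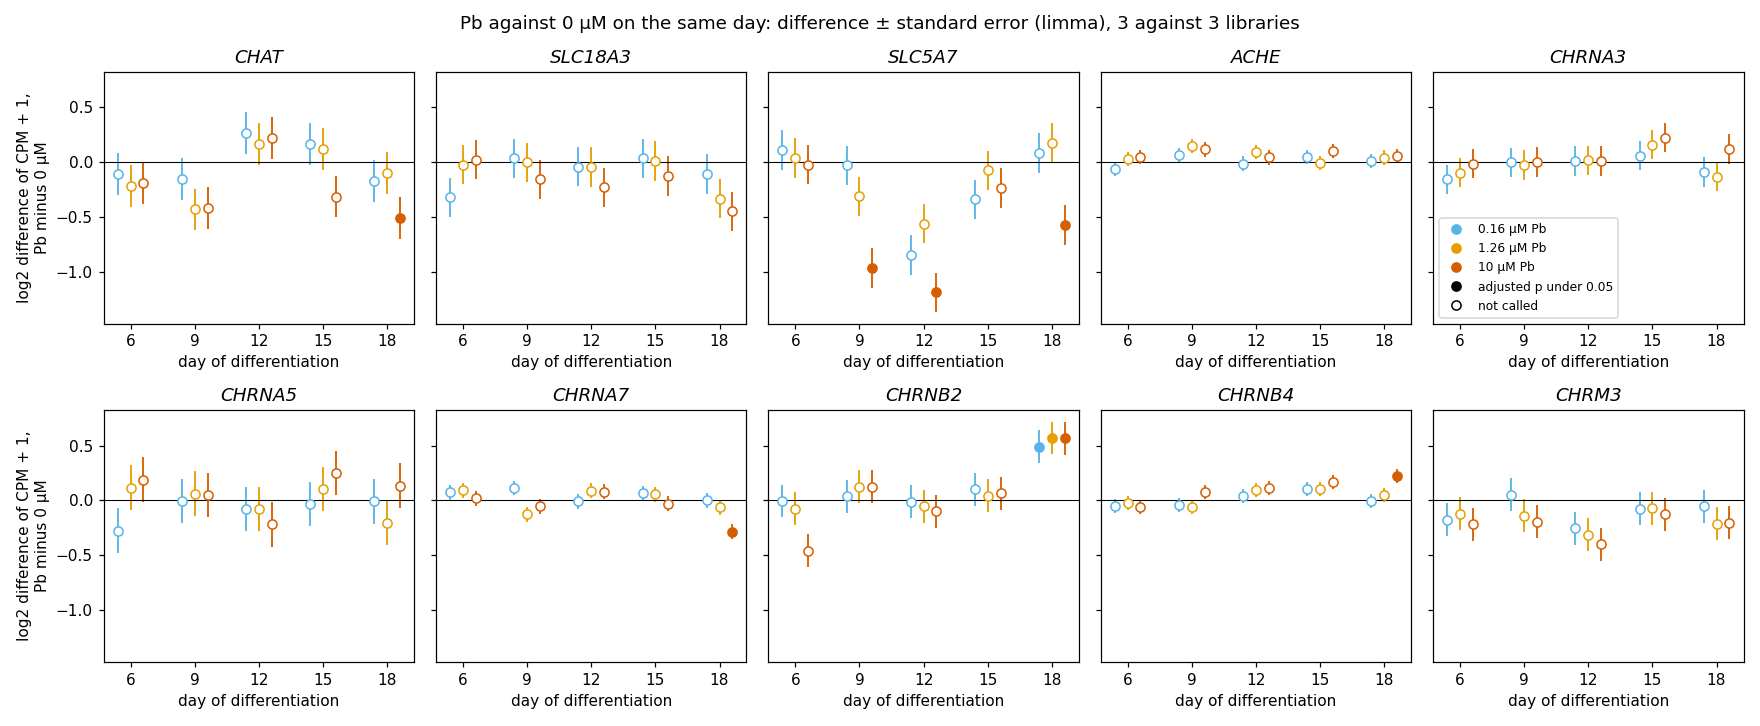
Log2 difference of CPM + 1, Pb minus 0 µM of the same day, with the standard error, for 0.16, 1.26 and 10 µM Pb (left to right within a day); filled points passed. SLC5A7 reaches -1.19 at 10 µM on day 12, and ACHE has no filled point.

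SLC5A7, the transporter that feeds choline to the synthesis of acetylcholine, was the member that Pb changed most. On day 9 it had 0.191, 0.203 and 0.333 CPM at 10 µM, against 1.59, 1.65 and 1.08 CPM at 0 µM, without overlap (-0.97 ± 0.18, adjusted p = 0.000513). On day 12 it had 0.0791, 0 and 0 CPM at 10 µM, against 1.24, 1.08 and 1.76 CPM at 0 µM (-1.19 ± 0.18, adjusted p = 1.24e-05). The log2(CPM + 1) scale understates the change of genes as low as this one. In reads, the 3 libraries of day 12 together held 4 at 10 µM and 111 at 0 µM, a ratio of 0.0275 per assigned read with a 95% exact interval of 0.00735 to 0.0723, which covers counting error only. The lower doses on day 12 were below 0 µM as well, without overlap and without passing, with 0.269, 0.25 and 0.39 CPM at 0.16 µM (-0.85 ± 0.18, adjusted p = 0.0626) and 0.892, 0.527 and 0.381 CPM at 1.26 µM (-0.56 ± 0.18, 0.35). The means on day 12 did not follow the order of dose, with 0.303 CPM at 0.16 µM and 0.6 CPM at 1.26 µM, and these 2 doses overlapped. The 0.16 µM difference did pass with edgeR on the recovered reads, with a pseudocount of 0.25 and after rescaling.
On day 15 the doses overlapped with 0 µM, at 0.882, 0.391 and 0.785 CPM at 10 µM, against 0.57, 0.997 and 1.44 CPM at 0 µM. On day 18 the 10 µM libraries had 1.45, 2.05 and 2.37 CPM, against 3.55, 3.23 and 3.31 CPM at 0 µM (-0.57 ± 0.18, adjusted p = 0.0137); this call was lost without replicate 1 of 0 µM or replicate 1 of 10 µM, and with edgeR. As a mean over the 5 days SLC5A7 was lower at 10 µM by -0.60 ± 0.08 (adjusted p = 1.39e-07), which held under all alternatives tried. The Pb effect itself differed between days (moderated F test, adjusted p = 0.00194 at 10 µM and 0.00464 over all doses).
Markers of mesenchymal and substrate-adherent (S-type) neuroblastoma cells were lower at 10 µM too, also on days when SLC5A7 was not. Of the 8 listed genes, 7 passed the filter, and as a mean over days 5 of the 7 were lower and 0 higher at 10 µM (8.13% and 6.93% of all genes), with a median of -0.44 (0.00224 over all genes). COL3A1 changed most (-1.88, adjusted p = 2.61e-19), while COL1A2 (-0.02, 0.88) and TWIST1 (-0.07, 0.52) did not pass. The summed level of the 8 genes, in which abundant genes weigh most, lay below 0 µM at 10 µM without overlap on all 5 days. It was 96.5 to 113 CPM at 10 µM, against 184 to 196 CPM at 0 µM, on day 9, and 110 to 118 CPM at 10 µM, against 215 to 223 CPM at 0 µM, on day 12. On day 18 it was 163 to 170 CPM at 10 µM, against 227 to 240 CPM at 0 µM. SLC5A7 was below 0 µM without overlap on these 3 days only. On day 6 the sum was 142 to 148 CPM at 10 µM, against 164 to 171 CPM at 0 µM, while SLC5A7 averaged 1.06 CPM at 10 µM and 1.04 CPM at 0 µM. On day 15 the sum was 131 to 140 CPM at 10 µM, against 159 to 176 CPM at 0 µM, while SLC5A7 overlapped. At 1.26 µM on day 9 the sum was 132 to 147 CPM, again below 0 µM without overlap, while SLC5A7 overlapped. On day 12 the sum was below 0 µM at 0.16 µM (153 to 159 CPM) and 1.26 µM (136 to 145 CPM), as SLC5A7 was. The list's PRRX1 was at no more than 0.197 CPM in any library. Of the 7 noradrenergic markers, 4 were lower and 0 higher at 10 µM as a mean over days (8.13% and 6.93% of all genes), with a median of -0.09. DBH fell by 0.14 ± 0.03 (adjusted p = 0.000306) and TH, the first enzyme of noradrenaline synthesis, fell by 0.32 ± 0.08 (0.00249). The part of these cells in the SLC5A7 result was not tested.

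**Figure D4:**
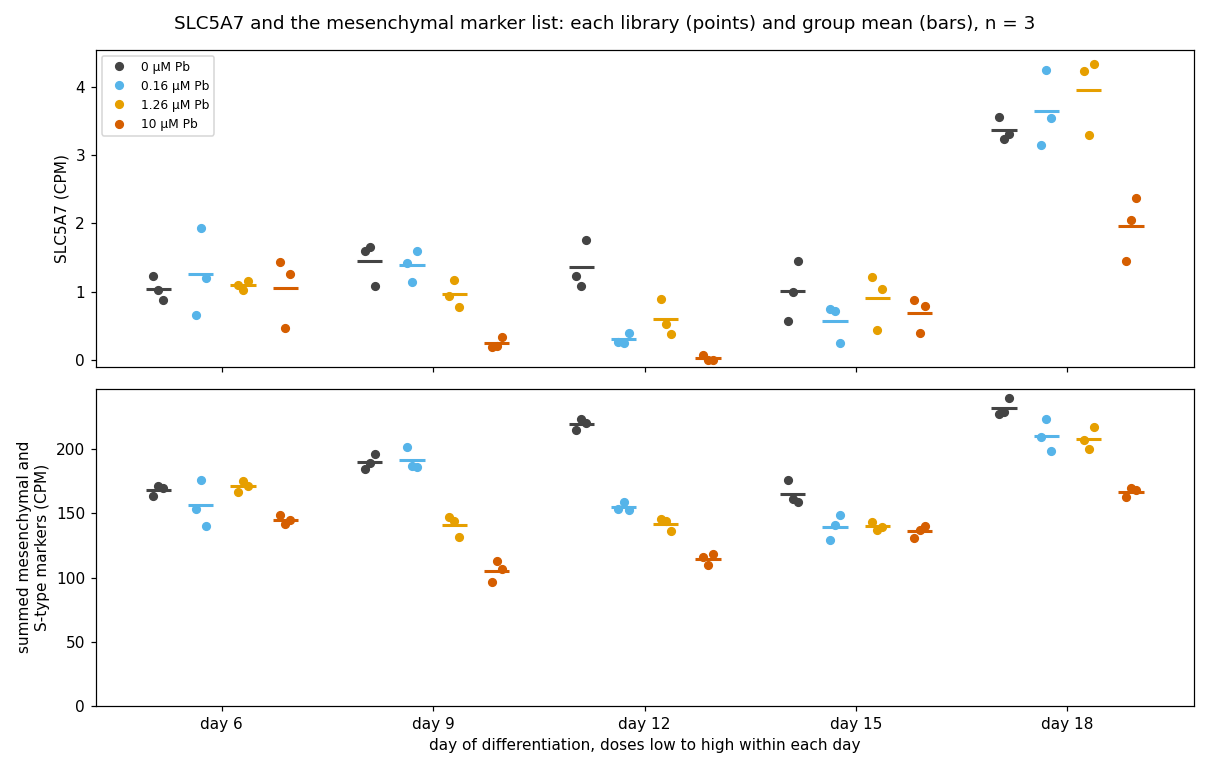
SLC5A7 (upper panel, CPM) and the sum of 8 mesenchymal and S-type markers (lower panel, CPM) in each library, by day and, within a day, by Pb dose from 0 to 10 µM; short lines are means of 3. At 10 µM the marker sum is below 0 µM without overlap on all 5 days, and SLC5A7 on days 9, 12 and 18 but not on days 6 and 15.

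CHAT was lower at 10 µM on day 18, with 2.22, 1.27 and 2.99 CPM, against 2.57, 3.3 and 4.46 CPM at 0 µM. The groups overlapped, and the difference of -0.51 ± 0.19 (adjusted p = 0.0401) was lost under 7 of 8 alternatives and without any 1 of replicates 2 and 3 of 0 µM and replicates 1 and 2 of 10 µM. Its mean over days at 10 µM (-0.24 ± 0.09, adjusted p = 0.0449) was lost in 18 of 30 fits that left out 1 library. SLC18A3 was at 112, 137 and 119 CPM at 10 µM on day 18, against 181, 156 and 166 CPM at 0 µM; the groups did not overlap, and the difference did not pass (-0.45 ± 0.18, adjusted p = 0.0533).
ACHE was called in 0 of the 15 comparisons, with differences between -0.06 and 0.15. On day 18 it had 673, 659 and 686 CPM at 10 µM, against 646, 684 and 616 CPM at 0 µM, and the groups overlapped. Its slope over the dose steps passed (0.03 ± 0.01 per step, adjusted p = 0.0423) but was lost under 9 of 10 alternatives. PRIMA1, its anchor, was lower at 10 µM as a mean over days (-0.24 ± 0.05, adjusted p = 0.000575).

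Of the nicotinic subunits, CHRNA7 and CHRNB4 went opposite ways at 10 µM on day 18. CHRNA7 had 59, 59.7 and 63.6 CPM at 10 µM, against 68.1, 76.4 and 79.1 CPM at 0 µM, without overlap (-0.29 ± 0.07, adjusted p = 0.0012). Its near-copy CHRFAM7A was counted at 7.39, 6.42 and 8.5 CPM at 10 µM, against 9.95, 8.92 and 10.5 CPM at 0 µM, also without overlap. CHRNB4 had 209, 210 and 211 CPM at 10 µM, against 183, 185 and 172 CPM at 0 µM, again without overlap (0.22 ± 0.06, adjusted p = 0.00765). Both calls held when any 1 library was left out and were lost when only the groups compared were fitted (adjusted p = 0.065 for CHRNA7 and 0.0647 for CHRNB4). As a mean over days CHRNB4 was higher at 10 µM by 0.10 ± 0.03 (adjusted p = 0.00973; 0.19 without day 18), and CHRNA7 did not pass (-0.05 ± 0.03, adjusted p = 0.263). CHRNA3 and CHRNA5, the neighbours of CHRNB4, were called in 0 of 15 comparisons each, with differences between -0.16 and 0.22 for CHRNA3 and between -0.28 and 0.25 for CHRNA5.
CHRNB2 passed on day 18 at all 3 doses, with 148, 126 and 119 CPM at 0.16 µM, 105, 154 and 162 CPM at 1.26 µM and 139, 149 and 126 CPM at 10 µM, against 70.2, 81.5 and 138 CPM at 0 µM. All 3 doses overlapped with 0 µM through its replicate 3. The differences were 0.49 ± 0.15 (adjusted p = 0.0413), 0.57 ± 0.15 (0.00996) and 0.57 ± 0.15 (0.00344), and all 3 calls were lost without replicate 1 of 0 µM; those of the lower doses were also lost without replicate 2 of 0 µM, without replicates 1 or 2 of 0.16 µM for that dose, and without replicates 2 or 3 of 1.26 µM for that dose. Replicate 1 of 0 µM on day 18 and replicate 3 of 10 µM on day 6 are the 2 libraries whose levels fell most with transcript length, by -0.434 and -0.411 log2 per log10 of length over 14090 genes, against -0.174 in the next. In the second of them CHRNB2 was at 51.4 CPM, against 94.7 and 97 CPM in the other 10 µM libraries of day 6. Over the 60 libraries, each taken from its group mean, CHRNB2 followed this slope with r = 0.705. Without both libraries the day 18 differences were 0.29 at 0.16 µM (adjusted p = 0.292), 0.37 at 1.26 µM (0.0751) and 0.37 at 10 µM (0.0239). That fit kept replicate 2 of 0 µM on day 18, which had 81.5 CPM of CHRNB2 and a length slope of -0.135. The Pb effect on CHRNB2 differed between days at 10 µM (adjusted p = 0.0053), a call lost without those 2 libraries (0.106), and that on CHRNA7 did at 10 µM (0.032) and over all doses (0.0479). The CHRNA7 calls were lost under 6 of 9 and 5 of 8 alternatives and in 6 of 30 and 40 of 60 fits that left out 1 library.

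CHRM3 did not pass on any single day, with differences between -0.40 and 0.05. On day 12 it had 40.7, 41.1 and 37.5 CPM at 10 µM, against 46.4, 56.3 and 56.2 CPM at 0 µM, without overlap (-0.40 ± 0.15, adjusted p = 0.119). As a mean over the 5 days it was lower at 10 µM (-0.23 ± 0.07, adjusted p = 0.014), a call lost when same-numbered dishes of a dose were averaged over days first (0.115). In all, 4 members passed at 10 µM as a mean over days (15.1% of all genes), namely SLC5A7, CHRM3 and CHAT lower (8.13% of all genes) and CHRNB4 higher (6.93%). Dishes of a dose that share a number on different days deviated together slightly. With these averaged over days first, so that each dose had 3 values, SLC5A7 alone of the 10 members passed (adjusted p = 0.000361), with 0.0839 for CHAT and 0.11 for CHRNB4. Of all 15263 genes, 1409 passed at 10 µM with this averaging. Without the averaging, 0 members passed at 0.16 µM (0.124% of all genes) and 0 at 1.26 µM (3.84%). At an unadjusted limma p under 0.05 these were 1 member at 0.16 µM and 2 at 1.26 µM, and edgeR called 0 at either dose. Here too the shares of all genes are not given, so the counts have no background beside them. The median difference of the members at 10 µM was -0.00755, against 0.00224 over all genes. The slope over dose steps passed for 5 members (15.7% of all genes), these 4 and ACHE, and the test of Pb by day for 3 members at 10 µM (21.7%) and 2 over all doses (11.8%).

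Other genes of the pathway at 10 µM as a mean over days were counted on the lists given above, where 6.93% of all genes were higher and 8.13% lower. Of the nicotinic modulators 2 were higher and 1 lower: LYPD1 fell by 0.43 ± 0.06 (adjusted p = 2.05e-07), and LYNX1 (0.20 ± 0.05, 0.00197) and RIC3 (0.13 ± 0.04, 0.0124) rose. CHRNA9 was the 1 of 5 other nicotinic subunits that passed (0.42 ± 0.07, adjusted p = 7.26e-06), and 0 of 4 other muscarinic receptors passed. Of the 9 Gq genes, ITPR1, the calcium channel that opens on inositol trisphosphate (0.24 ± 0.05, 9.19e-05), and RGS2 (0.11 ± 0.03, 0.00285) rose. Of the 10 transcription factors 3 fell, GATA2 (-0.20 ± 0.03, 1.62e-07), TLX3 (-0.39 ± 0.10, 0.00322) and HAND2 (-0.08 ± 0.03, 0.0485). Of the 6 choline transport and kinase genes SLC44A2 fell (-0.08 ± 0.02, 0.0185). Of the 8 receptors of cytokines or bone morphogenetic proteins OSMR fell (-0.36 ± 0.07, 0.000191) at a low level (0.491 ± 0.195 CPM on day 18 without Pb). With same-numbered dishes of a dose averaged over days first, 4 of these genes did not pass, RIC3 (adjusted p = 0.0813), RGS2 (0.0833), HAND2 (0.0744) and SLC44A2 (0.0524).

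Between the dishes of a group, 4 of the members moved together. Taking each library from its group mean, SLC18A3 and CHRNA3, on different chromosomes, had r = 0.918 over 60 libraries (Spearman rho = 0.878), 0.897 without the 2 libraries farthest from the median of SLC18A3, 0.9 in the 48 libraries of the earlier days and 0.967 in the 12 of day 18. SLC18A3 had r = 0.824 with CHRNA5 and 0.753 with CHRM3. By contrast SLC18A3 had r = -0.184 with CHRNB4, the partner subunit of CHRNA3, and -0.04 with CHAT, its host. In replicate 1 of 1.26 µM on day 18 all 4 were low, at 82.9 CPM for SLC18A3, 300 for CHRNA3, 14 for CHRNA5 and 86.2 for CHRM3, against 161 and 175, 585 and 626, 24.8 and 19.4, and 116 and 117 CPM in the other dishes of that group. The first component of the differences between dishes over all 15263 genes held 17.7% of their variance, and it had r = 0.873 with SLC18A3, 0.706 with CHRNA3, 0.92 with CHRNA5 and 0.804 with CHRM3. In the same order, 2.21%, 5.97%, 1.12% and 3.81% of all genes had an r with it at least as far from 0. The deviations also followed each library's slope of level over GC content, with r = 0.625 for SLC18A3, 0.519 for CHRNA3, 0.398 for CHRNA5 and 0.379 for CHRM3, and the part of this was not tested. This was not particular to these 4, since CHRNB4 had r = 0.441 and ACHE 0.384 with that slope. CHAT, SLC5A7, CHRNA7 and CHRNB2 had r between -0.242 and -0.0789. With library depth (log10 of assigned reads) SLC18A3, CHRNA3, CHRNA5 and CHRM3 had r between -0.322 and -0.223. The other members had r between -0.215 and -0.00138 with depth, and its part was not tested. ACHE and CHRNB4 also moved together, with r = 0.606. The standard deviation within groups (log2) was 0.234 for SLC18A3 and 0.264 for CHRNA5, and 0.0811 for ACHE, 0.0778 for CHRNA7 and 0.0773 for CHRNB4.

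**Figure D5:**
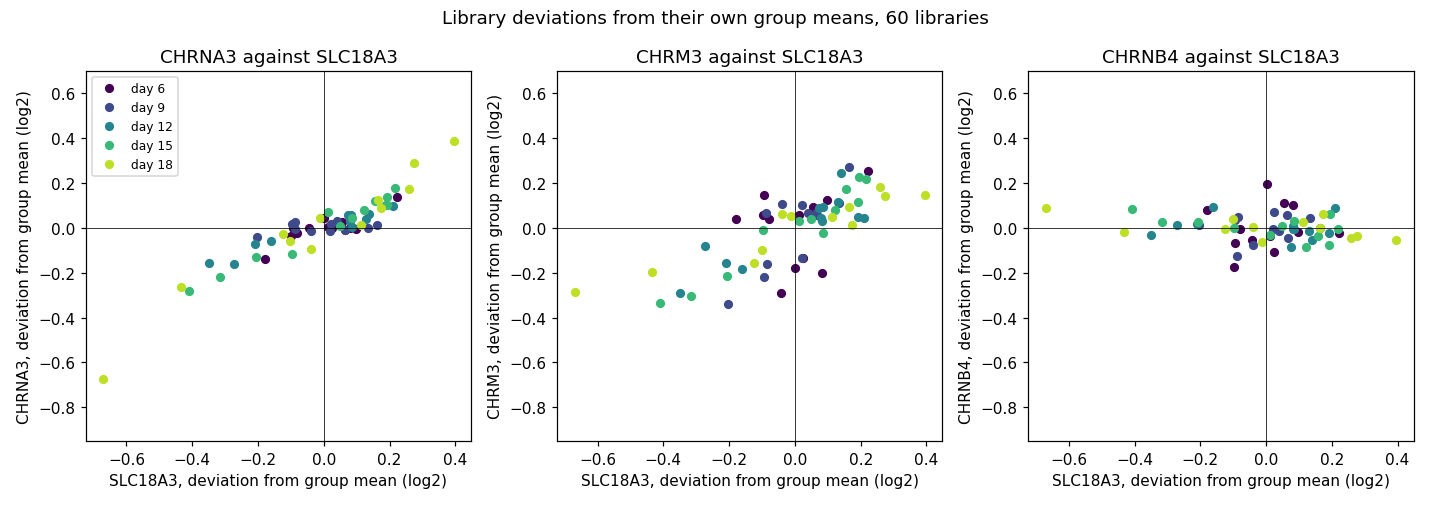
Deviation of each of the 60 libraries from its group mean (log2 of CPM + 1) for CHRNA3, CHRM3 and CHRNB4 (vertical axes) against SLC18A3 (horizontal axes), coloured by day. The points of CHRNA3 and CHRM3 follow a rising line (r = 0.918 and 0.753) and those of CHRNB4 do not (r = -0.184).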

How the data were processed

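Values were measured by RNA sequencing of 60 libraries. The authors deposited 1 table of CPM values (counts per 1000000 reads assigned to genes), and per the submitters' processing notes FastQC, MultiQC, STAR, featureCounts and the GRCh38 build were used; versions, annotation and strand setting are not given in the sources used here. All values were whole multiples of 1 read within 0.01 read, so whole reads were recovered (100% of values). They cover 16594259 to 50539599 reads per library. A gene needed 1 CPM or more in 3 libraries or more (15263 did), and log2(CPM + 1) was fitted with limma 3.58.1 in R 4.3.3, with 1 mean for each of 20 groups, an intensity trend and 40 residual degrees of freedom. P-values were adjusted by Benjamini-Hochberg over the genes kept, two-sided, with a threshold of 0.05. The fit was tested on simulated data in which only genes of a higher mean level than CHAT and SLC5A7 were changed. That test does not cover genes as low as CHAT and SLC5A7. Replicates are dishes of 1 line, so p-values measure the spread between dishes.

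The 10 genes and the lists were chosen with earlier results of these data known. Named were all 10, up to 4 genes of each pathway list with the smallest p for day 18 against day 6 and up to 3 for 10 µM as the mean over days, and the 2 genes most like each member over 20 group means. Alternatives were a pseudocount of 0.25, no filter, median-ratio rescaling, only the groups compared, a replicate block, edgeR 4.0.16 with TMM or DESeq2 1.42.0 size factors on recovered reads, leaving out the 2 libraries low in long transcripts, leaving out day 18, doses linear in µM, leaving out each library and, chosen after seeing the data, averaging same-numbered dishes of a dose over days. Standard errors stand beside log2 differences and standard deviations beside CPM. The slope is per dose step from 0 to 3. Lengths are of GENCODE release 29 principal transcripts.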

Additional observations from a re-analysis of the deposited data

Results flagged for a closer look

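Pb effects that differed between days by a moderated F test of limma were found for 3 members. For SLC5A7 the adjusted p was 0.00194 at 10 µM and 0.00464 over all doses, and its difference was largest on day 12 (-1.19 on the log2 scale, lower in 3 of 3 libraries than every library at 0 µM) and -0.02 on day 6.
For CHRNA7 the adjusted p was 0.032 at 10 µM and 0.0479 over all doses, with a difference of -0.29 on day 18.
For CHRNB2 the adjusted p was 0.0053 at 10 µM, with differences of -0.46 on day 6 and 0.57 on day 18, each in a comparison that holds 1 of the 2 libraries low in long transcripts. This call was lost without those libraries (adjusted p = 0.106) and without day 18 (0.0535).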

How the results depend on the processing

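Of 280 tests of a member, 67 passed, of which 42 passed under all alternatives and with each library left out, 44 under all alternatives alone, and 0 changed direction. Members passing the slope were 5, against 3 with no filter, 3 with edgeR and TMM, 3 with edgeR and DESeq2 size factors, 2 without day 18, and 1 with same-numbered dishes of a dose averaged over days. Those passing Pb by day over all doses were 2, against 1 after rescaling, 1 with the replicate block, 1 with either edgeR fit and 1 without day 18; at 10 µM they were 3, against 1 without day 18. Calls within days were 9, against 4 when only the groups compared were fitted. Means at 10 µM gave 4, against 2 without day 18 and 1 with same-numbered dishes averaged (1409 of all genes). The cause was not tested.
With 1 library left out, members called against day 6 ran from 2 to 2 on day 9, 6 to 6 on day 12, 6 to 8 on day 15 and 7 to 9 on day 18. Against the day before they ran from 7 to 8 on day 12, 5 to 5 on day 15 and 6 to 7 on day 18. Calls within days ran from 5 (replicate 1 of day 18, 0 µM, left out) to 10. Means over days ran from 0 to 0 at 0.16 µM, 0 to 1 at 1.26 µM (1 with replicate 3 of day 18, 0 µM, left out) and 3 to 4 at 10 µM. The slope ran from 3 to 5, and Pb by day from 2 to 4 at 10 µM and 1 to 3 over all doses.
Replicate numbers were not taken to pair the dishes, since no label says so and not every pair had r over 0.1. Same-numbered libraries of a day had a mean r of 0.028 over 90 pairs (23 over 0.1). Those of different days had a mean r over 30 pairs each of 0.023 at 0 µM (7 over 0.1), 0.072 at 0.16 µM (13), 0.080 at 1.26 µM (11) and 0.113 at 10 µM (11). For different numbers the mean r was -0.012, -0.036, -0.040 and -0.056 (60 pairs each). Deviations within a group cancel out, so these negative means follow from the positive ones and are no separate reference. The averaging of same-numbered dishes was chosen after seeing the data, and leaves fewer residual degrees of freedom. Depth limits CHAT and SLC5A7, which are near or under 1 CPM in many libraries.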
